A study of Mus musculus with 6 samples.

Results

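The expression of 39 genes of DNA replication and of the G1/S transition was examined by RNA sequencing in mouse prostate tumors and normal prostate. The members are the rows of the count table whose symbols belong to a set of licensing factors, helicase activators, DNA polymerases, fork accessory proteins, nucleotide enzymes, chromatin assembly factors, cyclin E genes and E2F genes, and all 39 were found among the 24091 genes of the table. There were 6 libraries in 3 groups of 2. The first group (12Q) was prostate tumors of males with a humanised allele that encodes 12 glutamines in a polyglutamine tract, and the second (48Q) was prostate tumors of males with the same allele at 48 glutamines. Both tumor groups also carried 1 conditional exon 3 allele of Ctnnb1, written Ctnnb1(Ex3)L/wt in the labels, and PBCre-4, a Cre transgene driven by a probasin promoter in prostate epithelium. The third group (WT) was normal prostate of wild-type mice. When Cre deletes exon 3, β-catenin loses the phosphorylation sites that target it for destruction. WT mice differed from both tumor groups in every one of these alleles and in having no tumor, and no tumor-free group carried the alleles, so these cannot be told apart in the comparisons with WT. The labels give no ages. They do not state that the replicates are separate animals, so the p-values measure the spread between these libraries, and part or all of it may be technical.

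A cell prepares its chromosomes for copying in G1, when the origin recognition complex, Cdc6 and Cdt1 load the MCM hexamer onto origins as an inactive helicase, a step called licensing. At the start of S phase Mcm10, Cdc45 and the GINS complex turn the loaded hexamer into a moving helicase, primase and the polymerases copy the strands behind it, and a sliding clamp, its loader, a flap nuclease and a ligase finish the lagging strand. Many genes of this machinery are transcribed as cells pass from G1 into S by the E2F factors, which the retinoblastoma protein family holds in check until cyclin-dependent kinases, among them cyclin E with Cdk2, release them. Most cells of an adult prostate are not dividing, so such transcripts are usually low in that tissue.

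Values are counts of reads per gene, given as CPM, edgeR's counts relative to library totals after TMM normalization, the trimmed mean of M-values. The totals lay between 26416181 and 28559546 counts. The members together took 0.1003% and 0.1546% of all counts in the 12Q libraries, 0.0599% and 0.0741% in the 48Q libraries and 0.0175% and 0.0312% in the WT libraries. A count of 3 corresponded to 0.0856 to 0.156 CPM, and the lowest count of a member in any library was 3, for Orc1 in WT replicate 1. The luminal epithelium genes Krt8 and Krt18 were present in all 6 libraries, and the 8 luminal markers summed to 8545 and 6539 CPM in 12Q, 7306 and 5664 CPM in 48Q and 39648 and 23486 CPM in WT. Most of the WT sums came from Pbsn, the probasin gene, at 3.33 and 5.14 CPM in 12Q, 3954 and 2248 CPM in 48Q and 28214 and 16144 CPM in WT. The other 7 summed to 8542 and 6534 CPM in 12Q, 3352 and 3416 CPM in 48Q and 11434 and 7343 CPM in WT. Ctnnb1 itself did not pass in either tumor group (log2 fold changes over WT of 0.69 in 12Q and 0.72 in 48Q, edgeR adjusted p = 0.15 and 0.208), and counts per gene do not show whether exon 3 was deleted. In each group the replicates differed by more than sampling noise, with a chi-square per degree of freedom of 256 in 12Q, 42.0 in 48Q and 178 in WT. Because whole tissue was sequenced, a larger share of cycling cells and more RNA per cycling cell cannot be told apart in any of the values that follow.

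All 39 members had a higher fitted level in 12Q tumors than in WT prostate, and 25 of them rose past the threshold. A gene was called where edgeR's quasi-likelihood test gave an adjusted p below 0.05 over the 15050 genes tested, a filter that all 39 members passed. By this rule 25 members were higher, 0 lower and 14 not past in 12Q versus WT, where 11.2% of all genes were called higher and 11.2% lower. The members' median log2 fold change was 1.95, against -0.01 over all genes tested, of which 49.3% had a positive fold change. In 38 of the 39 both 12Q libraries lay above both WT libraries, as 30.1% of all genes did, and the exception was Gins2. Summed over the members, the level was 980 and 1366 CPM in 12Q libraries, 494 and 598 CPM in 48Q libraries and 247 and 385 CPM in WT libraries. The number of members called was 9 without 12Q replicate 2 and 9 without WT replicate 1. Fewer than 25 were also called without 12Q replicate 1, without 48Q replicate 1 or without 48Q replicate 2. More were called without WT replicate 2. Each of these fits left 1 library in a group, and the causes of the changes were not tested. The members called in each of the 6 fits that left out 1 library, and under all 9 other settings tried, were Mcm5, Mcm6, Mcm7, Pola1, Rrm2 and Tyms.

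The members' summed level in 48Q tumors lay between those in 12Q tumors and WT prostate, and no member passed edgeR's test on either side. In 48Q versus WT, 0 members were called, where 3.95% of all genes were called higher and 1.23% lower. The members' median was 0.92 against 0.02 over all genes, and 35 members had a positive fold change, as 51.2% of all genes did. An unadjusted p under 0.05 by edgeR was found in 12, all higher in 48Q. Over all 15050 genes it was found in 3749, of which 2246 were higher in 48Q. The members' smallest adjusted p by edgeR was 0.0636, for Lig1. DESeq2 called 8 members higher in this comparison, and 10.4% of all genes. With library totals in place of TMM, edgeR called 7 members higher and 12.8% of all genes, and the medians were 1.57 over the members and 0.71 over all genes. In 25 members both 48Q libraries lay above both WT libraries, as 34.7% of all genes did, and in Gins2 both lay below. In 12Q versus 48Q, 0 members were called, where 1.01% of all genes were called higher and 3.16% lower. All 39 had a positive fold change, as 50.2% of all genes did, with a median of 1.00 against 0.00 over all genes. An unadjusted p under 0.05 by edgeR was found in 17, all higher in 12Q. Over all 15050 genes it was found in 3961, of which 1568 were higher in 12Q. Of the members 11 had an adjusted p of at least 0.05 and under 0.1, and the smallest adjusted p by edgeR was 0.0509, for Rrm2. DESeq2 called 14 members higher in 12Q than in 48Q, and 6.11% of all genes. By limma-voom 3 members, Mcm5, Rfc2 and Rrm2, and 2.14% of all genes were called higher. The libraries of 37 members were higher in 12Q than in 48Q without overlap, as 31.3% of all genes were, and in 24 members every 12Q library lay above every 48Q library and every 48Q library above every WT library, an order found in 9.8% of all genes. In another 12 members the 12Q libraries lay above all others while the 48Q and WT libraries overlapped, as they did in 6.71% of all genes. The 3 comparisons share their libraries, so they are not independent of each other.

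**Figure D1:**
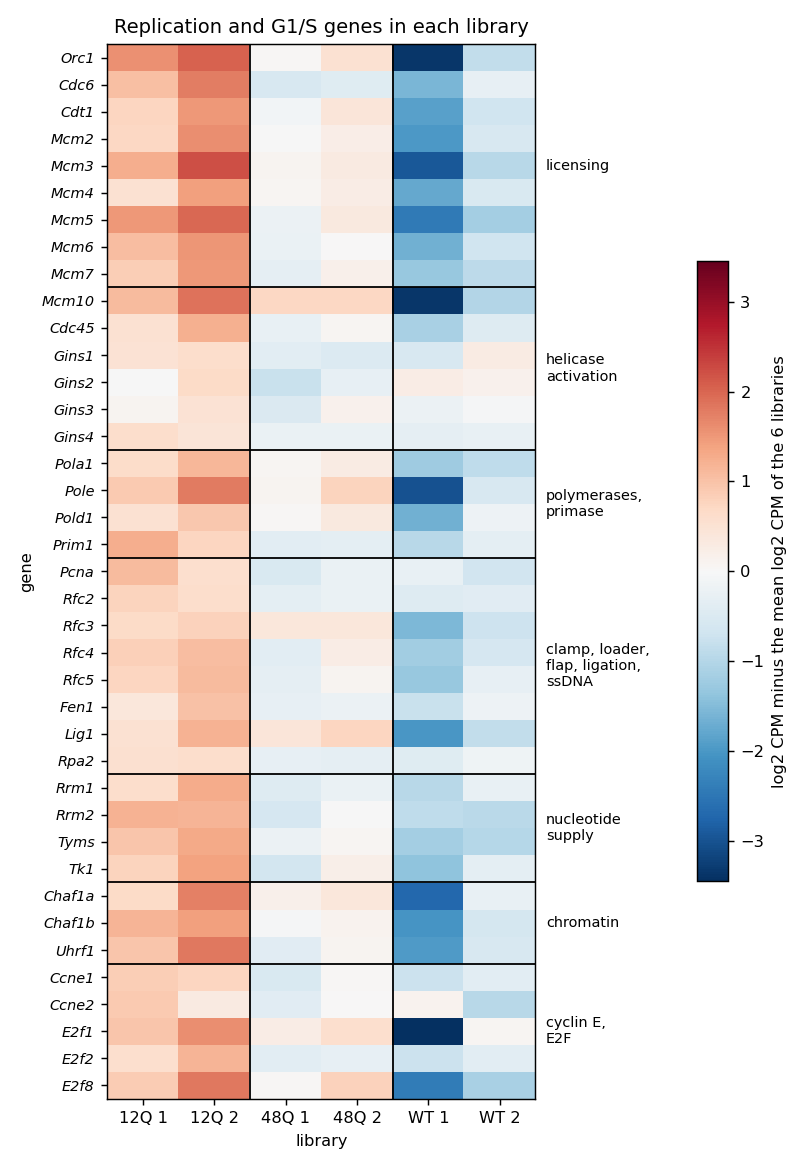
Level of each of the 39 genes (rows, grouped by role) in each library (columns, 12Q then 48Q then WT), as log2 CPM minus the gene's mean log2 CPM over the 6 libraries, with red above and blue below that mean. The 12Q columns are red for nearly all genes and WT replicate 1 is the darkest blue column. The Gins1, Gins2 and Gins3 rows stay pale along all columns.

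Promoter windows were searched for motifs as a planned description, with no test. The windows are from RefSeq (GRCm38.p6) and run from 250 bases before to 50 after each annotated start. Of the 39 members 32 had at least 1 window, 38 windows in all. The E2F motif was searched as TTTGGCGC, TTTCCCGC, TTTGCCGC or TTTCGCGC, the CCAAT box as CCAAT, and the cell cycle homology region (CHR), an element known from mitotic genes, as TTTGAA or TTCGAA, each on both strands, with overlaps allowed. The sequences below are the 250 bases before the start, written 5′ to 3′ on the gene's own strand with matches in capitals. Rrm2, Mcm5 and Pola1 are shown as the members with the smallest edgeR adjusted p in 12Q versus WT within their roles. Lig1 was picked by the same rule and is not shown. None of its windows held a searched motif in the 250 bases before the start. In 1 of them an E2F match did not lie wholly within those bases. Mcm6 is shown for its 3 E2F matches. Ccnb2, the cyclin B2 gene and no member, is a mitotic promoter for contrast. Both were chosen after their values were seen.
Mcm5, chr8:75109259-75109508, plus strand: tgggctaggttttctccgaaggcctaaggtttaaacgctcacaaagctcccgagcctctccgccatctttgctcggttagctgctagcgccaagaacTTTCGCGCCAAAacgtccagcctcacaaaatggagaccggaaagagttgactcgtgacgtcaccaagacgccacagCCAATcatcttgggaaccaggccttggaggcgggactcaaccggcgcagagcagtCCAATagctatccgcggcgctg
Mcm6, chr1:128359706-128359955, minus strand: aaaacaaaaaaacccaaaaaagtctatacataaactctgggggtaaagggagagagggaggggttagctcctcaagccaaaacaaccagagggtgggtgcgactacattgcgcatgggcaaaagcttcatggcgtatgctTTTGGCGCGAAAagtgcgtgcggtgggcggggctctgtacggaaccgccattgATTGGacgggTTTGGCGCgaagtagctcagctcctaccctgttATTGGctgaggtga
Pola1, chrX:93632156-93632405, minus strand: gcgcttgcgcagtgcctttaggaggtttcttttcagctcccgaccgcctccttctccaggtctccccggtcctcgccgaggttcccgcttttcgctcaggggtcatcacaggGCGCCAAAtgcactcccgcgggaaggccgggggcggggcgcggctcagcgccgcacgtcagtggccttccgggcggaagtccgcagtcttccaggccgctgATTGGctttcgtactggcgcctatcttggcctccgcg
Rrm2, chr12:24708004-24708253, plus strand: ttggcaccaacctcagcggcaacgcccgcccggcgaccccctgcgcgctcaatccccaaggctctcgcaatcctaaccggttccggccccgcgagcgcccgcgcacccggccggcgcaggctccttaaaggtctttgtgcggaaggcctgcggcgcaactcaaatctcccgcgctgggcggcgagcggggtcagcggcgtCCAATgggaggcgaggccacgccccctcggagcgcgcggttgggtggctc
Ccnb2, chr9:70421555-70421804, minus strand: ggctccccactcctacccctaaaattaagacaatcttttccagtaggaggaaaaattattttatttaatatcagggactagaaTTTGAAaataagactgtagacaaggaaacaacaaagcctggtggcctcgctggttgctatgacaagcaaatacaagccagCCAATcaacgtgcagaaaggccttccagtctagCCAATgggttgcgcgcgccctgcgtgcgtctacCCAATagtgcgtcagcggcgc

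In the Mcm5 window the capitals that start 153 bases before the start are 2 overlapping E2F matches, 1 on each strand, and those at 77 and 22 bases are CCAAT boxes. In the Mcm6 window an overlapping pair of E2F matches starts 110 bases before the start and a further one 47 bases before it, with CCAAT boxes on the reverse strand at 57 and 14 bases. The Pola1 window has 1 E2F match on the reverse strand, 138 bases before the start, and a CCAAT box 37 bases before it. The Rrm2 window has a CCAAT box at 50 bases and none of the E2F letters searched. In the Ccnb2 window the first capitals, 167 bases before the start, are a CHR match, followed by CCAAT boxes at 87, 54 and 21 bases, with none of the E2F letters.

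Over all 38 member windows, 14 (36.8%) held an E2F motif, against 1 of 22 windows (4.55%) of the mitotic genes and 744 of 32851 windows (2.26%) in the whole table. The CCAAT box was in 60.5% of member windows, 77.3% of mitotic windows and 37.4% of all windows, and the CHR in 21.1%, 77.3% and 19.2%. By role the E2F motif was found in 7 of 8 licensing genes with a window (Orc1, Cdc6, Cdt1, Mcm3, Mcm5, Mcm6 and Mcm7), 2 of 3 polymerase genes, 2 of 7 fork accessory genes, 1 of 3 helicase activation genes, 1 of 3 chromatin genes, 1 of 4 cyclin E and E2F genes and 0 of 4 nucleotide enzymes. It was found in 12 of the 23 genes with a window that were called higher in 12Q tumors and in 2 of the 9 that were not past. A match to letters is a description of these windows and is not a measured binding site. The members include genes long known as E2F targets.

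**Figure D2:**
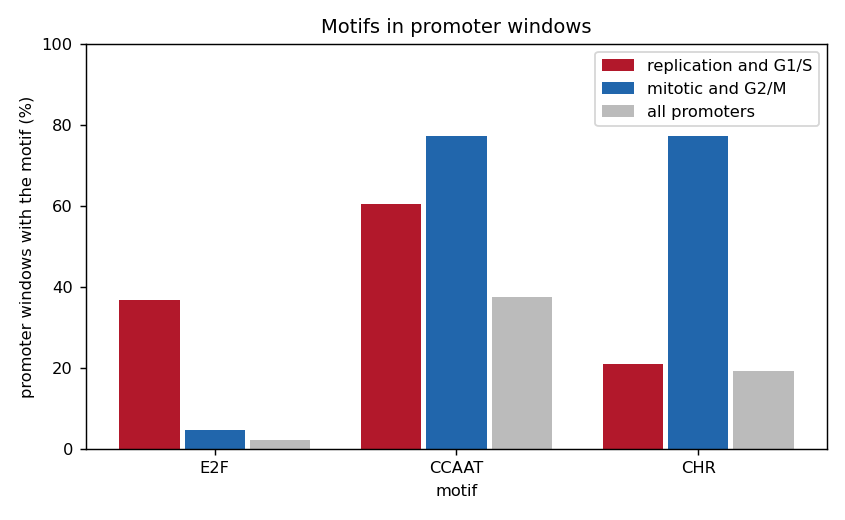
Percent of promoter windows (300 bases around annotated starts, RefSeq GRCm38.p6) that hold an E2F, CCAAT or CHR motif on either strand, for the replication and G1/S genes (38 windows), mitotic and G2/M genes (22 windows) and all windows of the table. The E2F bar is tallest for the replication genes at 36.8%, and the CHR bar is tallest for the mitotic genes at 77.3%.

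The licensing factors were the role group in which every member rose in 12Q tumors, 9 of 9, where 11.2% of all genes did. Their median log2 fold change over WT was 2.32. Of the MCM subunits, which form the ring of the replicative helicase, Mcm5 had the smallest p. Mcm5 (mm10, chromosome 8, 75109509 to 75128439) stood at 49.2 and 69.5 CPM in 12Q, 15.4 and 22.0 CPM in 48Q and 3.23 and 7.83 CPM in WT. The groups did not overlap and kept the order 12Q, 48Q, WT. The log2 fold change was 3.42 ± 0.50 (SE) in 12Q versus WT (edgeR adjusted p = 0.00869), 1.75 ± 0.47 in 48Q versus WT (adjusted p = 0.0837) and 1.66 ± 0.46 in 12Q versus 48Q (adjusted p = 0.0924). Mcm6 (chromosome 1, 128331575 to 128359705), whose promoter held the 3 E2F matches above, stood at 88.5 and 122 CPM in 12Q, 36.1 and 42.9 CPM in 48Q and 13.5 and 26.7 CPM in WT, again in that order and without overlap. Its log2 fold change was 2.39 ± 0.38 in 12Q versus WT (edgeR adjusted p = 0.0109), 0.98 ± 0.37 in 48Q versus WT (adjusted p = 0.168) and 1.41 ± 0.37 in 12Q versus 48Q (adjusted p = 0.0813).

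Mcm2 and Mcm3 gave the same order. Mcm2 stood at 49.0 and 89.7 CPM in 12Q, 29.2 and 34.7 CPM in 48Q and 7.56 and 20.3 CPM in WT. Mcm3 stood at 37.0 and 71.7 CPM in 12Q, 16.4 and 19.3 CPM in 48Q and 2.03 and 7.87 CPM in WT, without overlap. Its log2 fold change over WT, 3.45 ± 0.68 (edgeR adjusted p = 0.0192), was the largest of the 39 members. Its lowest level, in WT replicate 1, rested on 39 counts. Mcm4 had a log2 fold change over WT of 2.06 and Mcm7 of 2.30, with edgeR adjusted p = 0.0315 and 0.0102. Other genes cover 12.6% of the Mcm7 exon bases.

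The loading factors also rose in 12Q tumors. Orc1, the largest subunit of the origin recognition complex, stood at 4.77 and 6.53 CPM in 12Q, 1.63 and 2.31 CPM in 48Q and 0.156 and 0.884 CPM in WT, where it rested on 3 and 20 counts. Its log2 fold change was 3.41 ± 0.83 in 12Q versus WT (edgeR adjusted p = 0.0334). Cdc6, the ATPase that works with it, stood at 10.9 and 17.9 CPM in 12Q, 3.61 and 3.96 CPM in 48Q and 1.77 and 4.33 CPM in WT. Its 48Q libraries fell within the range of its WT libraries, and 1.93 ± 0.55 in 12Q versus 48Q was the largest log2 difference of any member between the tumors (edgeR adjusted p = 0.0967). Cdt1, which brings the MCM ring to the origin, had a log2 fold change of 2.31 ± 0.54 in 12Q versus WT (edgeR adjusted p = 0.0296) and 1.34 ± 0.52 in 48Q versus WT (adjusted p = 0.18). The subunits of the origin recognition complex other than Orc1, which were no members, did not pass the test in 12Q tumors. Orc2 to Orc6 had log2 fold changes over WT of -0.70, -0.26, -0.47, 0.29 and 0.84, and those of Orc3 and Orc4 turn positive when library totals replace TMM.

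Of the 6 helicase activation genes 1, Mcm10, was called higher in 12Q tumors than in WT, where 11.2% of all genes were. All 6 had a positive fold change. In 5 of them both 12Q libraries lay above both WT libraries, as in 30.1% of all genes. The median log2 fold change was 0.71 over WT, 0.02 in 48Q versus WT and 0.85 in 12Q versus 48Q. Mcm10 (chromosome 2, 4990724 to 5012791), which helps to start unwinding, stood at 9.14 and 15.8 CPM in 12Q, 7.02 and 7.02 CPM in 48Q and 0.417 and 2.12 CPM in WT. Its groups did not overlap. The log2 fold change was 3.28 ± 0.78 in 12Q versus WT (edgeR adjusted p = 0.0309) and 2.45 ± 0.76 in 48Q versus WT (adjusted p = 0.112). The tumors differed by 0.83 ± 0.70 (adjusted p = 0.477). Cdc45, a part of the active helicase, stood at 6.33 and 10.2 CPM in 12Q, 3.67 and 4.56 CPM in 48Q and 2.03 and 3.23 CPM in WT, without overlap, and did not pass (1.65 ± 0.49 over WT, edgeR adjusted p = 0.0587).

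Gins1 to Gins4 encode the 4 subunits of the GINS complex, and none of them passed edgeR's test in any comparison. DESeq2 called Gins4 higher in 12Q than in WT and than in 48Q, and edgeR with library totals in place of TMM called it in 12Q versus WT. Gins4 (chromosome 8, 23226610 to 23237668) stood at 29.1 and 26.1 CPM in 12Q, 16.5 and 16.5 CPM in 48Q and 15.6 and 16.0 CPM in WT. The 12Q libraries were the highest and the 48Q and WT libraries lay close together. The log2 fold changes were 0.80 ± 0.25 in 12Q versus WT (edgeR adjusted p = 0.0654), 0.06 ± 0.25 in 48Q versus WT (adjusted p = 0.904) and 0.74 ± 0.25 in 12Q versus 48Q (adjusted p = 0.133). Gins2 stood at 5.62 and 8.94 CPM in 12Q, 3.31 and 4.71 CPM in 48Q and 6.78 and 6.28 CPM in WT, the member with the lowest fold change over WT (0.16 ± 0.44, edgeR adjusted p = 0.82). Its 12Q and WT libraries overlapped. Of its exon bases 67.3% are also covered by Gse1 on the other strand, so its counts are uncertain. Gins1 and Gins3 had log2 fold changes of 0.62 ± 0.48 and 0.43 ± 0.47 in 12Q versus WT, and of -0.35 ± 0.48 and -0.02 ± 0.47 in 48Q versus WT, where both turn positive with library totals in place of TMM.

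Levels of different genes were set side by side per length of gene model. The mean over Mcm2 to Mcm7 was 15.01 and 24.6 CPM per kb in 12Q, 7.22 and 8.89 CPM per kb in 48Q and 2.17 and 4.66 CPM per kb in WT. The mean over the GINS subunits was 8.28 and 8.75 CPM per kb in 12Q, 4.75 and 5.18 CPM per kb in 48Q and 5.41 and 5.84 CPM per kb in WT. Within a library the ratio of the MCM mean to the GINS mean, which does not depend on the scaling of libraries, was 1.81 and 2.81 in the 12Q libraries, 1.52 and 1.72 in the 48Q libraries and 0.401 and 0.798 in the WT libraries. Every tumor library lay above 1 and both WT libraries below. The MCM subunits were also closer to each other in the tumors. The highest subunit exceeded the lowest 1.56-fold and 1.39-fold in 12Q, 2.19-fold and 1.73-fold in 48Q and 4.76-fold and 2.86-fold in WT. These ratios were chosen after their values were seen and were not tested.

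**Figure D3:**
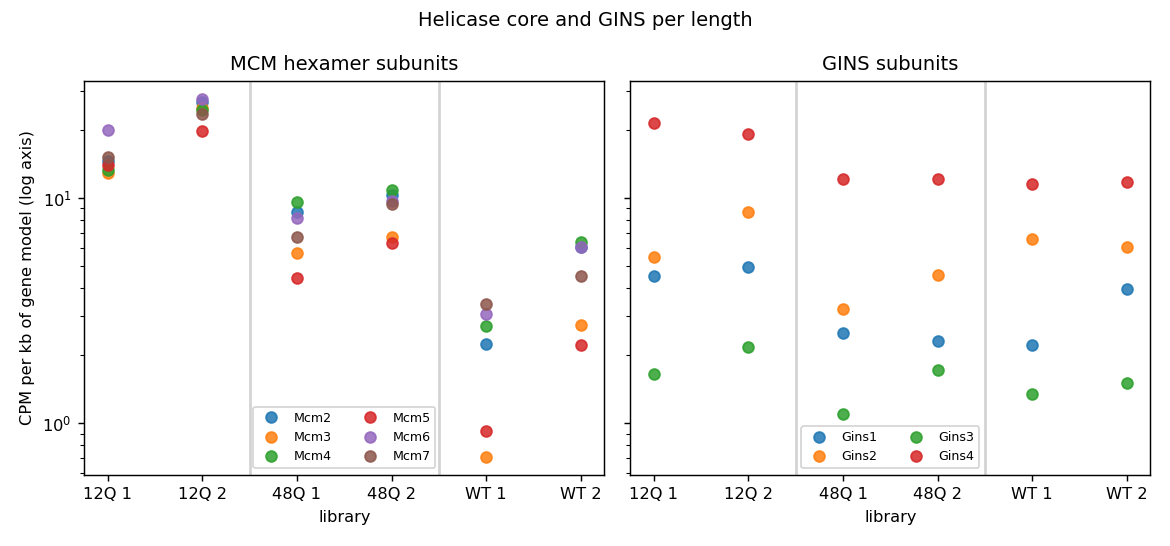
Level of the MCM subunits (left) and the GINS subunits (right) in each library, as CPM per kb of gene model on a log axis, 1 point per gene and library. The MCM points lie between 12.9 and 27.5 in the 12Q libraries and reach at most 6.40 in WT, while the points of each GINS subunit span a narrower range along the axis.

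Of the 4 polymerase and primase genes 2 rose in 12Q tumors, where 11.2% of all genes did. Their median log2 fold change was 1.79 over WT, 1.06 in 48Q versus WT and 0.85 in 12Q versus 48Q. Pola1 (chromosome X, 93304766 to 93632155), the catalytic subunit of the polymerase that starts each new strand, stood at 26.3 and 37.4 CPM in 12Q, 17.8 and 20.5 CPM in 48Q and 7.30 and 9.20 CPM in WT. The groups were ordered 12Q, 48Q, WT without overlap. On the log2 scale the differences were 1.95 ± 0.32 in 12Q versus WT (edgeR adjusted p = 0.0113), 1.21 ± 0.31 in 48Q versus WT (adjusted p = 0.0748) and 0.74 ± 0.31 in 12Q versus 48Q (adjusted p = 0.191). Prim1 (chromosome 10, 128015215 to 128030030), the catalytic primase subunit, stood at 27.2 and 19.3 CPM in 12Q, 8.88 and 9.07 CPM in 48Q and 5.89 and 9.06 CPM in WT. Here the 12Q libraries stood alone and the 48Q libraries overlapped WT. Fitted log2 fold changes were 1.63 ± 0.37 in 12Q versus WT (edgeR adjusted p = 0.027), 0.26 ± 0.36 in 48Q versus WT (adjusted p = 0.688) and 1.37 ± 0.36 in 12Q versus 48Q (adjusted p = 0.0824). Pole, the catalytic subunit of the leading strand polymerase, stood at 17.3 and 31.8 CPM in 12Q, 9.76 and 15.6 CPM in 48Q and 1.15 and 6.28 CPM in WT. It did not pass (2.72 ± 0.80, edgeR adjusted p = 0.0558). Pold1, its lagging strand counterpart, did not pass either (1.47 ± 0.53 over WT, edgeR adjusted p = 0.0926).

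Of the 8 fork accessory genes, 6 rose in 12Q tumors, where 11.2% of all genes did. The median log2 fold change of the 8 was 1.46 over WT, 0.40 in 48Q versus WT and 0.97 in 12Q versus 48Q. Rfc2 (chromosome 5, 134582690 to 134598328), a subunit of the loader that places the sliding clamp, stood at 47.0 and 42.2 CPM in 12Q, 21.6 and 23.7 CPM in 48Q and 20.2 and 21.05 CPM in WT. Its libraries lay close together within each group. The log2 fold change was 1.11 ± 0.23 in 12Q versus WT (edgeR adjusted p = 0.0223), 0.98 ± 0.23 in 12Q versus 48Q (adjusted p = 0.0654), and 0.14 ± 0.23 in 48Q versus WT (adjusted p = 0.745). The loader subunits Rfc3, Rfc4 and Rfc5 also rose in 12Q, by 1.79, 1.80 and 1.62 on the log2 scale (edgeR adjusted p = 0.0258, 0.0317 and 0.0497). Rfc1, the large subunit and no member, did not pass (-0.21, edgeR adjusted p = 0.538, positive with library totals). Pcna, the clamp itself, stood at 55.1 and 39.3 CPM in 12Q, 18.1 and 22.1 CPM in 48Q and 22.0 and 16.5 CPM in WT, with 1.30 ± 0.30 in 12Q versus WT (edgeR adjusted p = 0.0297). Its 48Q and WT libraries overlapped, and 1.23 ± 0.30 separated the tumors (edgeR adjusted p = 0.0702).

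Lig1 (chromosome 7, 13277313 to 13311427), the ligase that joins Okazaki fragments, stood at 43.3 and 69.1 CPM in 12Q, 40.7 and 50.8 CPM in 48Q and 7.51 and 16.8 CPM in WT. Both tumor groups lay above WT and overlapped each other. Its log2 fold changes were 2.21 ± 0.45 in 12Q versus WT (edgeR adjusted p = 0.0209), 1.91 ± 0.45 in 48Q versus WT (adjusted p = 0.0636) and 0.30 ± 0.43 in 12Q versus 48Q (adjusted p = 0.687, and -0.068 without 12Q replicate 2). Rfc3 stood at 14.4 and 15.9 CPM in 12Q, 12.0 and 12.1 CPM in 48Q and 3.13 and 5.62 CPM in WT, so that its tumor groups lay closer to each other than to WT. Fen1, the flap nuclease, and Rpa2, a subunit of the single-strand binding protein, did not pass in 12Q versus WT (1.19 and 0.87, edgeR adjusted p = 0.0625 and 0.0796). Of the Fen1 exon bases 84.2% are covered by genes on the other strand.

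**Figure D4:**
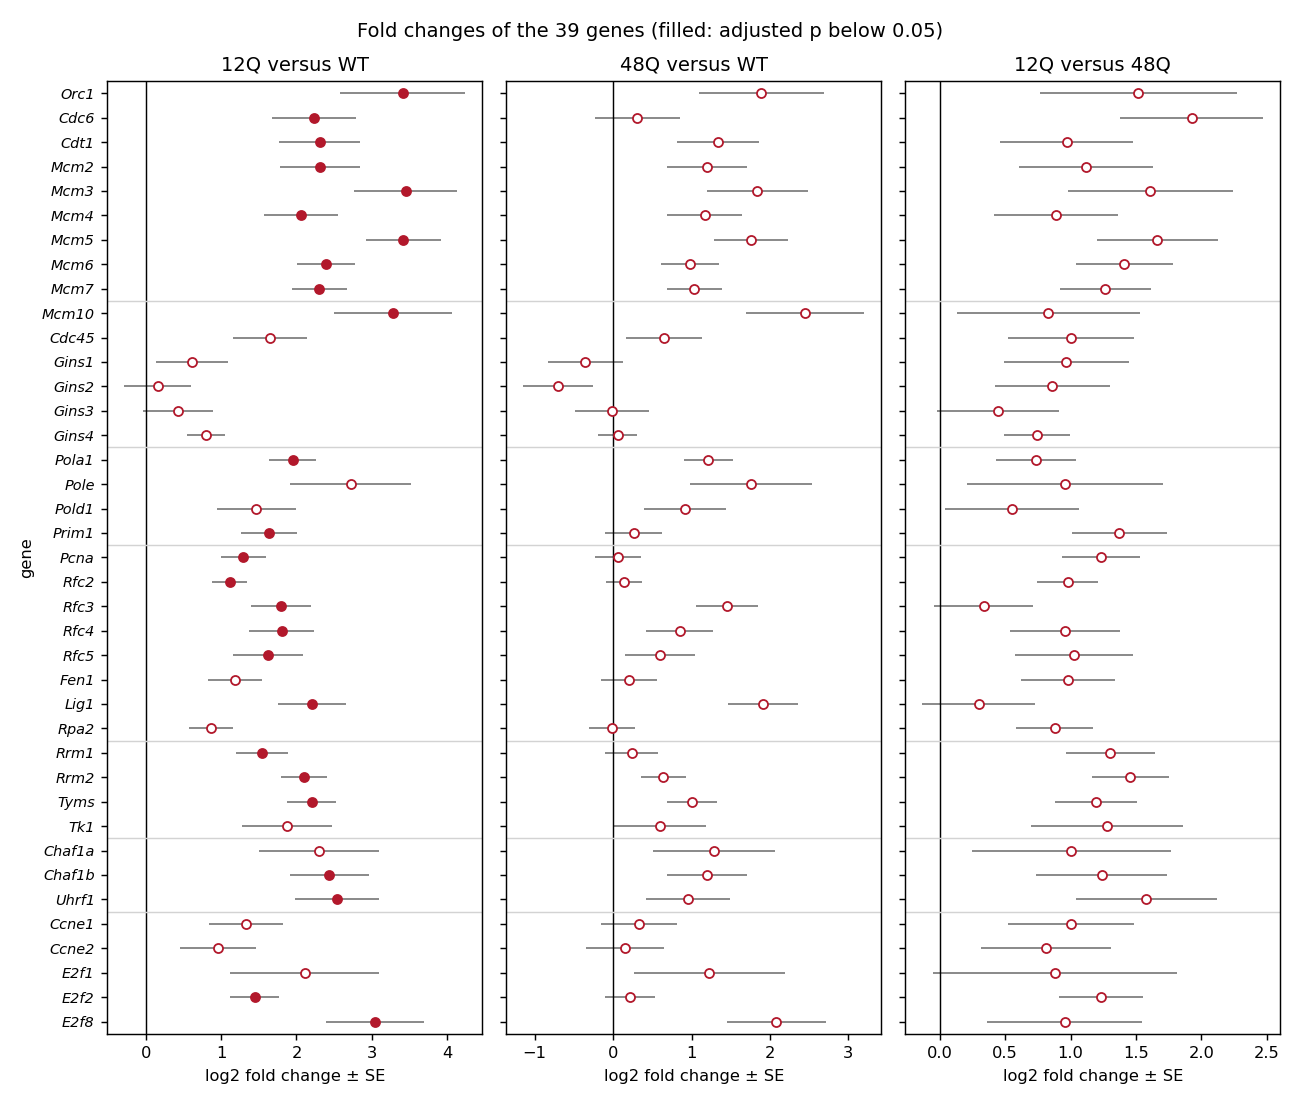
log2 fold change ± SE by edgeR of each of the 39 genes in 12Q versus WT, 48Q versus WT and 12Q versus 48Q, grouped by role from top to bottom, with filled points for an adjusted p below 0.05. Filled points appear in the first panel for 25 genes, including all 9 licensing factors, and the other panels hold open points throughout. In the middle panel Lig1, Rfc3, Mcm10 and E2f8 lie to the right while Pcna, Rfc2, Rpa2 and the GINS genes lie near 0 or left of it.

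The enzymes of nucleotide supply rose in 12Q tumors in 3 of 4 cases, where 11.2% of all genes rose. Their median log2 fold change was 1.99 over WT, 0.62 in 48Q versus WT and 1.29 in 12Q versus 48Q. Rrm2 (chromosome 12, 24708254 to 24714146), the small subunit of ribonucleotide reductase, stood at 41.5 and 40.5 CPM in 12Q, 12.0 and 17.8 CPM in 48Q and 9.70 and 9.42 CPM in WT. The 12Q libraries were nearly equal and far above the rest, and the groups did not overlap. The log2 fold change was 2.10 ± 0.30 in 12Q versus WT (edgeR adjusted p = 0.00823, the smallest of the 39 members), 0.64 ± 0.29 in 48Q versus WT (adjusted p = 0.23) and 1.46 ± 0.29 in 12Q versus 48Q (adjusted p = 0.0509). Tyms (chromosome 5, 30058200 to 30073625), thymidylate synthase, stood at 21.7 and 27.3 CPM in 12Q, 9.64 and 11.7 CPM in 48Q and 4.96 and 5.66 CPM in WT. It too was ordered 12Q, 48Q, WT. The log2 fold changes were 2.20 ± 0.32 in 12Q versus WT (edgeR adjusted p = 0.00869), 1.01 ± 0.31 in 48Q versus WT (adjusted p = 0.115) and 1.20 ± 0.31 between the tumors (adjusted p = 0.0798). Rrm1, the large subunit of the reductase, stood at 91.1 and 144 CPM in 12Q, 44.1 and 51.0 CPM in 48Q and 30.7 and 49.96 CPM in WT. Its mean CPM was the highest of the members in every group, and it rose by 1.54 ± 0.34 in 12Q over WT (edgeR adjusted p = 0.026). Tk1, thymidine kinase, did not pass (1.87 ± 0.60, edgeR adjusted p = 0.0698). Counts of Tyms and Pcna are uncertain because each has processed pseudogenes that can share reads with it.

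Among nucleotide enzymes that were no members, Shmt1, a serine hydroxymethyltransferase, rose in 12Q tumors (1.10 ± 0.26, edgeR adjusted p = 0.0305) and did not pass in 48Q versus WT (0.52 ± 0.26, adjusted p = 0.263). Rrm2b, the reductase subunit used outside S phase, stood at 29.5 and 19.2 CPM in 12Q, 28.8 and 28.1 CPM in 48Q and 41.2 and 47.7 CPM in WT. Both tumor groups lay below WT, and the difference did not pass in 12Q (-0.87 ± 0.29, edgeR adjusted p = 0.0745) or 48Q (-0.65 ± 0.28, adjusted p = 0.221, and 0.04 with library totals).

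Of the 3 chromatin genes 2 rose in 12Q tumors, where 11.2% of all genes did. The median log2 fold change of the 3 was 2.44 over WT, 1.20 in 48Q versus WT and 1.24 in 12Q versus 48Q. Chaf1b (chromosome 16, 93883901 to 93906106), a subunit of the factor that deposits histones behind the fork, stood at 17.8 and 21.05 CPM in 12Q, 7.74 and 8.73 CPM in 48Q and 1.93 and 5.22 CPM in WT. The groups did not overlap. Its log2 fold changes were 2.44 ± 0.52 in 12Q versus WT (edgeR adjusted p = 0.024), 1.20 ± 0.51 in 48Q versus WT (adjusted p = 0.209) and 1.24 ± 0.50 in 12Q versus 48Q (adjusted p = 0.181). Uhrf1 (chromosome 17, 56303337 to 56323486), which guides maintenance methylation to new DNA, stood at 28.0 and 51.4 CPM in 12Q, 11.1 and 15.4 CPM in 48Q and 3.76 and 9.90 CPM in WT. It showed the same order. On the log2 scale the differences were 2.54 ± 0.56 in 12Q versus WT (edgeR adjusted p = 0.0257), 0.96 ± 0.54 in 48Q versus WT (adjusted p = 0.317) and 1.58 ± 0.54 between the tumors (adjusted p = 0.136). Dnmt1, the methyltransferase that Uhrf1 recruits, was no member and also rose in 12Q (1.53 ± 0.36, edgeR adjusted p = 0.0312). Chaf1a stood at 14.1 and 29.8 CPM in 12Q, 10.1 and 11.7 CPM in 48Q and 1.36 and 7.52 CPM in WT. It did not pass (2.30 ± 0.80 in 12Q versus WT, edgeR adjusted p = 0.0849), and Ubxn6 on the other strand covers 52.5% of its exon bases.

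The cyclin E and E2F genes rose in 12Q tumors in 2 of 5 cases, where 11.2% of all genes rose. Their median log2 fold change was 1.45 over WT, 0.33 in 48Q versus WT and 0.96 in 12Q versus 48Q. E2f8 (chromosome 7, 48866429 to 48881596), a repressor of the family that is itself an E2F target, stood at 8.18 and 15.6 CPM in 12Q, 4.55 and 7.70 CPM in 48Q and 0.835 and 2.03 CPM in WT. The groups did not overlap. Fitted log2 fold changes were 3.04 ± 0.65 in 12Q versus WT (edgeR adjusted p = 0.0235), 2.08 ± 0.63 in 48Q versus WT (adjusted p = 0.107) and 0.95 ± 0.59 in 12Q versus 48Q (adjusted p = 0.344). E2f2 (chromosome 4, 136172274 to 136196056), an activator of the family, stood at 25.7 and 38.5 CPM in 12Q, 13.3 and 14.03 CPM in 48Q and 10.2 and 13.3 CPM in WT. Its 12Q libraries stood above all others and its 48Q and WT libraries overlapped. Its log2 fold changes were 1.45 ± 0.32 in 12Q versus WT (edgeR adjusted p = 0.0264), 0.21 ± 0.32 in 48Q versus WT (adjusted p = 0.71) and 1.23 ± 0.32 between the tumors (adjusted p = 0.0791). E2f1, the activator after which the family is named, stood at 4.40 and 6.90 CPM in 12Q, 2.71 and 3.42 CPM in 48Q and 0.209 and 2.39 CPM in WT. The WT values rested on 4 and 54 counts, and the gene did not pass in 12Q versus WT (2.11 ± 0.98, edgeR adjusted p = 0.168). The cyclin E genes did not pass in 12Q versus WT, Ccne1 at 1.34 ± 0.49 (edgeR adjusted p = 0.0977) and Ccne2 at 0.96 ± 0.50 (adjusted p = 0.209).

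Among 22 partners of the G1/S switch that were no members, 4 were called higher and 2 lower in 12Q than in WT, with a median log2 fold change of 0.10. Over all genes tested 11.2% were called higher and 11.2% lower, with a median of -0.01. Cdk6 and Cdk4, the kinases that act with the D cyclins, were higher in 12Q (2.05 ± 0.31 and 1.01 ± 0.20, edgeR adjusted p = 0.00941 and 0.019), as were Myc, a transcription factor of cell growth (1.14 ± 0.20, adjusted p = 0.0144), and E2f7 (2.33 ± 0.61, adjusted p = 0.04). Ccnd2, the cyclin D2 gene, was lower in 12Q, at 9.77 and 12.6 CPM in 12Q, 53.4 and 48.6 CPM in 48Q and 29.7 and 42.3 CPM in WT. It was lower than in WT (-1.69 ± 0.29, edgeR adjusted p = 0.0128) and than in 48Q (-2.19 ± 0.29, adjusted p = 0.0246), the 1 gene of the list called between the tumors. Cdc25a, the phosphatase that frees cyclin-dependent kinases, was lower in 12Q (-1.18 ± 0.27, edgeR adjusted p = 0.0272) and in 48Q (-1.52 ± 0.27, adjusted p = 0.0359) than in WT. Cdk6 was the 1 gene of the list that rose in 48Q, at 68.9 and 86.1 CPM in 12Q, 101 and 97.3 CPM in 48Q and 13.9 and 23.4 CPM in WT (2.41 ± 0.31 in 48Q versus WT, edgeR adjusted p = 0.0187). Rb1, the retinoblastoma gene, did not pass in any comparison (-0.51 ± 0.23 in 12Q versus WT, edgeR adjusted p = 0.158).

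Of 34 further genes of the replication machinery, 10 rose in 12Q tumors and 0 fell, where 11.2% of all genes rose and 11.2% fell. Their median log2 fold change was 1.15. In 48Q versus WT and in 12Q versus 48Q 0 were called (medians 0.63 and 0.55). Over all genes tested 3.95% and 1.01% were called higher there, and 1.23% and 3.16% lower. The 10 included Asf1b, a histone chaperone (2.64 ± 0.44, edgeR adjusted p = 0.0117), Rpa1, the large single-strand binding subunit (1.22 ± 0.26, adjusted p = 0.0246), Wdhd1, which couples polymerase to helicase (2.28 ± 0.50, adjusted p = 0.0251), and Prim2, the partner of Prim1 (1.35 ± 0.32, adjusted p = 0.0321). The smaller polymerase subunits Pola2, Pold2, Pold3, Pole2, Pole3 and Pole4 did not pass by edgeR, with log2 fold changes in 12Q versus WT between -0.28 (Pold3) and 1.97 (Pole2, adjusted p = 0.0825), the negative ones (Pold2 and Pold3) turning positive with library totals. The members were chosen with earlier results of these data known, so a difference between these shares and those of the members is not a test.

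Mitotic and G2/M genes, which act later in the same cycle, had larger median fold changes than the replication genes. Of 26 such genes 25 were higher in 12Q than in WT, with a median log2 fold change of 3.62. In 48Q versus WT 18 were higher (median 2.24), and in 12Q versus 48Q 2 were, Top2a and Kif20a (median 1.47). Over all genes tested 11.2%, 3.95% and 1.01% were called higher in these comparisons. These 26 genes too were listed with earlier results of these data known. Their summed level was 874 and 1254 CPM in 12Q, 329 and 554 CPM in 48Q and 131 and 129 CPM in WT. The ratio of the members' counts to the mitotic counts within a library was 1.12 and 1.09 in the 12Q libraries, 1.504 and 1.08 in the 48Q libraries and 1.89 and 2.99 in the WT libraries, so both WT libraries lay above every tumor library. Mki67, the proliferation marker gene, stood at 103 and 204 CPM in 12Q, 66.9 and 118 CPM in 48Q and 17.996 and 22.0 CPM in WT. Its log2 fold change was 2.94 ± 0.44 in 12Q versus WT (edgeR adjusted p = 0.0095) and 2.21 ± 0.43 in 48Q versus WT (adjusted p = 0.0444).

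**Figure D5:**
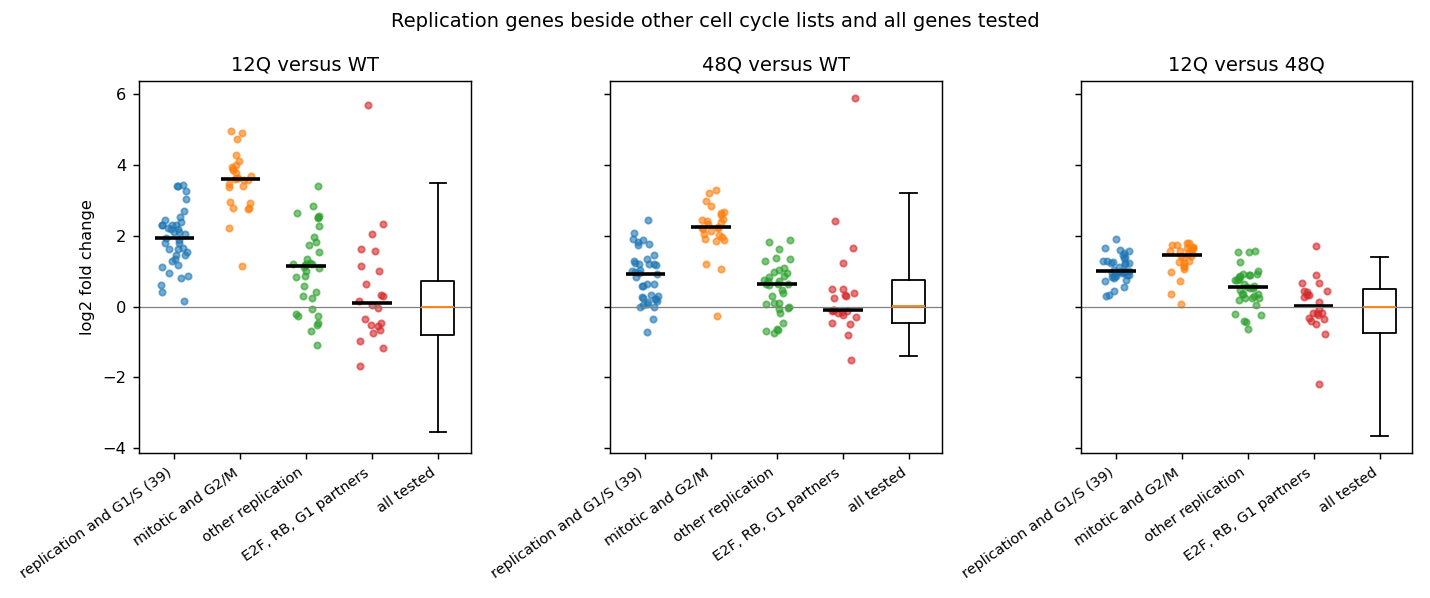
log2 fold change of each gene in the replication and G1/S set (39 genes), the mitotic and G2/M list (26), the other replication genes (34) and the E2F, RB and G1 partners (22), 1 point per gene with a black bar at the median, beside a box for all 15050 genes tested (orange line at the median, box from the lower to the upper quartile, whiskers at the 5th and 95th percentiles). The replication medians of 1.95, 0.92 and 1.00 lie below the mitotic medians of 3.62, 2.24 and 1.47 in the panels from left to right, and the highest red point, Mycn, had 0 counts in WT, so its position is not a measured fold.

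Summed markers of several cell types also differed between the groups, and not all followed the order of the members. The fibroblast and macrophage sums were highest in the 48Q libraries. Markers are counted as higher or lower where edgeR called them. Over all genes tested 11.2% were called higher and 11.2% lower in 12Q versus WT. In 48Q versus WT these shares were 3.95% higher and 1.23% lower, and in 12Q versus 48Q 1.01% higher and 3.16% lower. The 6 smooth muscle markers summed to 44.4 and 36.3 CPM in 12Q, 841 and 295 CPM in 48Q and 2310 and 5839 CPM in WT, with 6 of 6 lower in 12Q than in WT and 3 of 6 lower in 48Q. The 6 basal epithelium markers summed to 60.0 and 47.7 CPM in 12Q, 564 and 490 CPM in 48Q and 1262 and 755 CPM in WT, with 6 of 6 lower in 12Q than in WT and 5 of 6 lower in 12Q than in 48Q. Both sums were lowest in the 12Q libraries, in which the members were highest. The 6 fibroblast markers summed to 137 and 402 CPM in 12Q, 935 and 804 CPM in 48Q and 596 and 621 CPM in WT, with 3 of 6 lower in 12Q than in WT and Dpt at 0 counts in 12Q. The 6 endothelial markers summed to 211 and 192 CPM in 12Q, 104 and 97.7 CPM in 48Q and 73.8 and 93.0 CPM in WT, with 3 of 6 higher and 1 lower in 12Q than in WT and 1 lower in 48Q. The lower one was Emcn in both cases, at 17.4 and 10.8 CPM in 12Q, 11.02 and 9.41 CPM in 48Q and 59.6 and 40.1 CPM in WT. The 6 macrophage markers summed to 198 and 212 CPM in 12Q, 260 and 249 CPM in 48Q and 69.9 and 69.1 CPM in WT, with 5 of 6 higher in each tumor group than in WT. Both sums were higher in every tumor library than in WT. Markers of lymphocytes summed to at most 16.2 CPM and those of red blood cell precursors to at most 11.3 CPM in any library. The part of these differences in the members' levels was not tested.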

How the data were processed

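Per the labels' protocols, RNA was isolated from fresh tissue with RNA-Bee and sequenced from Kapa RNA HyperPrep libraries. The authors deposited 1 table of whole-number counts of reads per gene for all 6 libraries, with no normalization. The submitters' processing notes name TopHat2 2.0.14, HTSeq 0.6.0 and the build mm10. Annotation and strand setting are not given in the sources, so counts of the 14 members whose exons overlap another gene in GENCODE M21 (10 of them over more than 10% of their bases) are uncertain. Coordinates are those of the table.

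Groups and replicate numbers came from the labels. Genes were filtered with filterByExpr (minimum count 10, minimum total 15), scaled by TMM and tested with edgeR 4.0.16's quasi-likelihood F test under R 4.3.3. All 6 libraries entered 1 fit, which left 3 degrees of freedom for the spread, with Benjamini-Hochberg adjustment over the 15050 genes tested. The SE was the absolute log2 fold change divided by the root of F. The fit was also run on simulated counts with less spread than these libraries, so that run gives no error rate for these data. Alternatives were DESeq2's size factors, library totals, no filter, a mean of at least 1 CPM, DESeq2 1.42.0, limma-voom (limma 3.58.1), fits of only 2 groups, a replicate block, removal of the most abundant WT gene and removal of each library.

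Members described in full were those with the smallest p of each role group in each of the 3 comparisons, and others are given more briefly. From the other lists, genes with the smallest adjusted p were named, and all further genes were chosen after their values were seen. The members, roles and lists were chosen with earlier results of these data known. Markers of seminal vesicle and testis were examined as a further list. The list of further nucleotide enzymes is not reported here as a whole.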

Additional observations from a re-analysis of the deposited data

How the results depend on the processing

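In 12Q versus WT, 25 members were called, 11 when only the 2 compared groups were fitted, and 9 to 28 when 1 library was left out. In 48Q versus WT, 0 were called, against 7 with library totals, 8 with DESeq2 and 0 to 1 without 1 library. In 12Q versus 48Q, 0 were called, against 1 with size factors, 1 without the filter, 14 with DESeq2, 3 with limma-voom, 1 in the fit of 2 groups and 0 to 1 without 1 library. For 12Q versus WT, DESeq2 called 34 members and edgeR with library totals called 32. Both called Cdc45, Gins4, Pole, Fen1, Rpa2, Tk1 and Ccne1, which did not pass above. DESeq2 also called Pold1 and Chaf1a. Every such call was higher in the first-named group. Over all genes tested, deviations of libraries with the same replicate number were little correlated (0.03, 0.13 and -0.10). Most members were higher in replicate 2 in every group, as given below, so a shared factor is not settled. With the numbers as a replicate block 28, 2 and 1 members were called. With the WT numbers crossed, an alternative chosen after seeing the data, 0 members and 425 of all genes, against 780, were called in 48Q versus WT. Over all genes, calls numbered 3370, 780 and 627. They were 2540 and 2481 by DESeq2 in the comparisons of 48Q with WT and 12Q with 48Q, 2004 with library totals in 48Q versus WT, 1101 by limma-voom in 12Q versus 48Q, and 1887 in 12Q versus WT in the fit of 2 groups. Without WT replicate 1, edgeR called 0 of all genes in 48Q versus WT, and 2972 had an unadjusted p under 0.05. Library totals moved the median of all genes to 0.48, 0.71 and -0.19 and the members' to 2.45, 1.57 and 0.81, with 4298 genes called in 12Q versus WT (3266 higher) and 1921 of the 2004 higher in 48Q versus WT. The causes were not tested. When 1 library was left out, Prim1 in 48Q versus WT ranged from -0.018 to 0.60 and Lig1 in 12Q versus 48Q from -0.068 to 0.62. Depth limits Orc1, Mcm10 and E2f1 in WT, at 3, 8 and 4 counts in replicate 1.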

Other observations

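Within every group, replicate 2 held more of these transcripts than replicate 1. The level was higher in replicate 2 for 32 of 39 members in 12Q (median log2 difference 0.50), 36 in 48Q (0.28) and 35 in WT (0.75), with a pseudocount of 0.5 CPM. The medians over all genes were 0.00, -0.00 and 0.08. The replicate numbers are not stated to mark a shared day or animal.

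The 6 testis and seminal vesicle markers summed to 1.26 and 2.26 CPM in 12Q, 20.96 and 30.9 CPM in 48Q and 0.104 and 0.265 CPM in WT, with Tnp1 and Prm1 at 0 counts in every group.

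In levels per length of gene model Pcna was the highest member in every group, at a mean of 37.6 CPM per kb in 12Q, 16.03 CPM per kb in 48Q and 15.3 CPM per kb in WT, and Rfc2 was the next. The lowest member was E2f1 in 12Q (1.83 CPM per kb) and Orc1 in 48Q (0.657 CPM per kb) and WT (0.174 CPM per kb). Gins4 was the sixth in 12Q, the fourth in 48Q and the third in WT. These orders are descriptions and were not tested.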
